A study of Mus musculus with 10 samples.

Results

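The haemoglobin chains and the erythroid haem enzyme of the mouse were followed through 10 hippocampi, 5 from nPGC-1α mice and 5 from PGC-1αf/f mice. The genes were the adult alpha chains Hba-a1 and Hba-a2, the adult beta chains Hbb-bs and Hbb-bt, the embryonic chains Hbb-y and Hba-x, and Alas2. Of these 7 genes, 6 were among the 23462 genes named on the array. The members were matched by gene symbol, through the RefSeq accession that the scanner files give for each probe. This rule uses no measured value. For 6 of the 7 genes the array held a probe, 7 probes in all, and 6 of these probes were bright enough to test. No probe carried an accession of Hbb-bs, and the single probe of Hba-x was not well above background on any of the 10 arrays.

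Both groups carried a PGC-1α transgene behind a floxed stop cassette at the Rosa26 locus. The nPGC-1α mice also carried Cre recombinase under the neuronal Eno2 promoter, which removes the stop, and the PGC-1αf/f mice were littermates without Cre. All mice were on a C57BL/6 background, were labelled as males of 12 weeks, and had no surgery. The labels call the cell type neuron, but the RNA came from whole hippocampus, and each array was hybridised with RNA of 1 sample. In such RNA, fewer cells of a type and less RNA per cell cannot be told apart. Nothing in the labels says how the brains were taken or whether they were perfused.

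Some facts of the arrays bear on what follows. The targeted gene Ppargc1a stood between 2.13 and 2.34 in PGC-1αf/f and between 2.06 and 2.31 in nPGC-1α mice, on a scale explained below, a difference of 0.00 ± 0.09 (SE, limma adjusted p = 0.990). Whether that probe also reads RNA of the transgene cannot be told from the files. Y-linked transcripts were present on 4 of the 10 arrays, those of nPGC-1α replicates 1, 3 and 5 and of PGC-1αf/f replicate 1, although all mice were labelled male. The share of gene spots well above background was 74.5% to 81.5% in PGC-1αf/f and 67.2% to 73.4% in nPGC-1α arrays, so the groups did not overlap (exact permutation test, two-sided, p = 0.00794, the smallest that 5 against 5 arrays allow). The arrays lay on 2 slides. Replicates 1 to 4 of both groups were on slide 1, with the groups in different rows, and replicate 5 of both was on slide 2.

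Haemoglobin carries oxygen in red cells as a tetramer of alpha-type and beta-type chains, each holding a haem group. The chain genes lie in separate clusters, one for the alpha type and one for the beta type, and are switched in development from embryonic to adult members. Alas2 encodes the erythroid form of 5-aminolevulinate synthase, the enzyme that opens haem synthesis in red cell precursors, whereas its relative Alas1 serves other cells. Young red cells, the reticulocytes, still contain globin and Alas2 mRNA after the nucleus is lost, so tissue that holds blood carries these transcripts. Globin mRNA has also been described in neurons and glia.

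The genes share short sequence elements in front of their starts, and the members that moved together are shown here with Hbb-y, which did not move with them. The sequences are the 250 bases before the RefSeq start in build GRCm38.p6, written 5′ to 3′ on the strand of the gene. Capitals mark any match, on either strand, to 4 short motifs. TATAA stands for the TATA box and CCAAT for the box of that name. CACCC is the core of the box bound by KLF1 and GATAA that of sites for GATA factors.
Hba-a1, chr11:32283422-32283671, plus strand: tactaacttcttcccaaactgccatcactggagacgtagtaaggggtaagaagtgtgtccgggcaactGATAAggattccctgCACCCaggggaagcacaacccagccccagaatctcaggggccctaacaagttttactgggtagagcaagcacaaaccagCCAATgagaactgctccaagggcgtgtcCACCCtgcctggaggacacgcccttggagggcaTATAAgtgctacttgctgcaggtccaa
Hbb-bt, chr7:103813924-103814173, minus strand: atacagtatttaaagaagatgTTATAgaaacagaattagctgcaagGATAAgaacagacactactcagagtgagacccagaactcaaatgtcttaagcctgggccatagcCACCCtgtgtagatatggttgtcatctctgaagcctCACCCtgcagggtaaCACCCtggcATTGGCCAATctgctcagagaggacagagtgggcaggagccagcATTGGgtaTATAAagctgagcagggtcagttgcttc
Alas2, chrX:150547167-150547416, plus strand: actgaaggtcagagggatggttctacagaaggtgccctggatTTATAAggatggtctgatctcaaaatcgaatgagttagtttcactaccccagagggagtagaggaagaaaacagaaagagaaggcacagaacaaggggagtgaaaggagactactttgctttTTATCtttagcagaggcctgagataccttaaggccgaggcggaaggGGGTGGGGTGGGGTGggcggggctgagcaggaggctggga
Hbb-y, chr7:103853208-103853457, minus strand: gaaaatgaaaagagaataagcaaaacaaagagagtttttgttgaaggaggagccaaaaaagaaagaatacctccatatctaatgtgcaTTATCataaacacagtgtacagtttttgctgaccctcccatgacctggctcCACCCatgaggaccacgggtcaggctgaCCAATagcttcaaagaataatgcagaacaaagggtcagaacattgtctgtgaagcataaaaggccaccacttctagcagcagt
The letters GATAA were found in the windows of all 7 genes and in 22.6% of the 32851 mouse promoters of the table, and CACCC in all 7 and in 52.0% of promoters. CCAAT was found in 5 of the 7, all but Hba-x and Alas2, and in 33.8% of promoters. TATAA was found in 6 of the 7, all but Hbb-y, and in 22.8% of promoters. In Hba-a1, Hba-a2, Hbb-bs, Hbb-bt and Hba-x a match to TATAA lay between -30 and -23 from the start. In Alas2 it lay only between -208 and -203. A search for exact letters misses variants of an element, so it cannot show that Hbb-y has no TATA box. The matches overlapped only in Alas2, where TATAA and its reverse complement share letters. Of all promoters 0.968% held all 4 elements, and Hba-a1, Hba-a2, Hbb-bs and Hbb-bt were among them. The windows of Hba-a1 and Hba-a2 were the same in all 247 bases that overlap once shifted by 3 bases. A match of letters is a description of the sequence and no evidence of binding.

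In the hippocampus the adult alpha and beta chains and Alas2 varied several-fold from mouse to mouse and did so together, and both genotypes held high and low mice. Hbb-y did not follow it and was the only tested member whose groups did not overlap. A level below is the log2 of the processed signal of a probe minus the log2 of the 75th percentile of all gene spots on that array, so 0 is as bright as that percentile and 1 unit is a doubling. Levels are compared between arrays for 1 probe, never between probes.

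The adult alpha chain Hba-a1 (chr11:32283672-32284486, GRCm38.p6) had 2 probes, each printed in 10 spots. Probe A_51_P169730 read -0.75, 0.97, 0.49, 0.28 and 0.48 in PGC-1αf/f replicates 1 to 5. It read -0.14, -1.19, 1.14, -0.04 and 0.95 in nPGC-1α replicates 1 to 5. The lowest mice of both groups and the highest mice of both groups lay side by side, so the groups overlapped over nearly their whole range. The difference, nPGC-1α minus PGC-1αf/f, was -0.15 ± 0.44 (SE) on the log2 scale (limma adjusted p = 0.912). Probe A_55_P1962303 read -0.87, 1.75, 1.28, 0.93 and 0.44 in PGC-1αf/f mice. In nPGC-1α mice it read 0.48, -0.48, 1.94, 0.73 and 1.18. Its difference was 0.06 ± 0.52 (SE; limma adjusted p = 0.970), and again the groups overlapped. The gap between both probes of the gene was 0.63 to 0.80 on 7 arrays, but -0.12 in PGC-1αf/f replicate 1, -0.04 in PGC-1αf/f replicate 5 and 0.23 in nPGC-1α replicate 5, so they did not measure quite the same change on those 3 arrays.

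The second adult alpha gene, Hba-a2 (chr11:32296492-32297310), encodes nearly the same mRNA, so neither its probe A_55_P1962299 nor those of Hba-a1 can be taken as specific to 1 of the genes. This probe read -1.07, 0.82, 0.28, 0.14 and 0.39 in PGC-1αf/f mice. It read -0.39, -1.36, 0.92, -0.18 and 0.83 in nPGC-1α mice. The order of mice was close to that of probe A_51_P169730 of Hba-a1, with r = 0.997 over the 10 arrays. The difference was -0.15 ± 0.46 (SE; limma adjusted p = 0.916).

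Hbb-bt (chr7:103812524-103813923) is one of the paired adult beta genes of the single haplotype carried by C57BL/6 mice. The other is Hbb-bs, and whether the Hbb-bt probe also reads it cannot be told from the files. The probe, A_55_P1973809, is a single spot and read -0.70, 1.59, 0.55, 0.17 and 0.13 in PGC-1αf/f mice. In nPGC-1α mice it read -0.21, -1.05, 1.30, 0.32 and 1.04. The same mice were high and low as for the alpha chains. The difference was -0.07 ± 0.49 (SE; limma adjusted p = 0.966), with a 95% interval from 0.453-fold to 2.01-fold.

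Alas2 (chrX:150547417-150570622) was measured by the single-spot probe A_51_P327451, which was dim. It read -6.42, -4.52, -5.39, -5.94 and -5.68 in PGC-1αf/f mice and was well above background in all 5. It read -6.35, -7.23, -4.37, -5.62 and -5.06 in nPGC-1α mice, of which replicates 1 and 2 were not well above background. The difference was -0.14 ± 0.51 (SE; limma adjusted p = 0.931), and the groups overlapped.

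**Figure D1:**
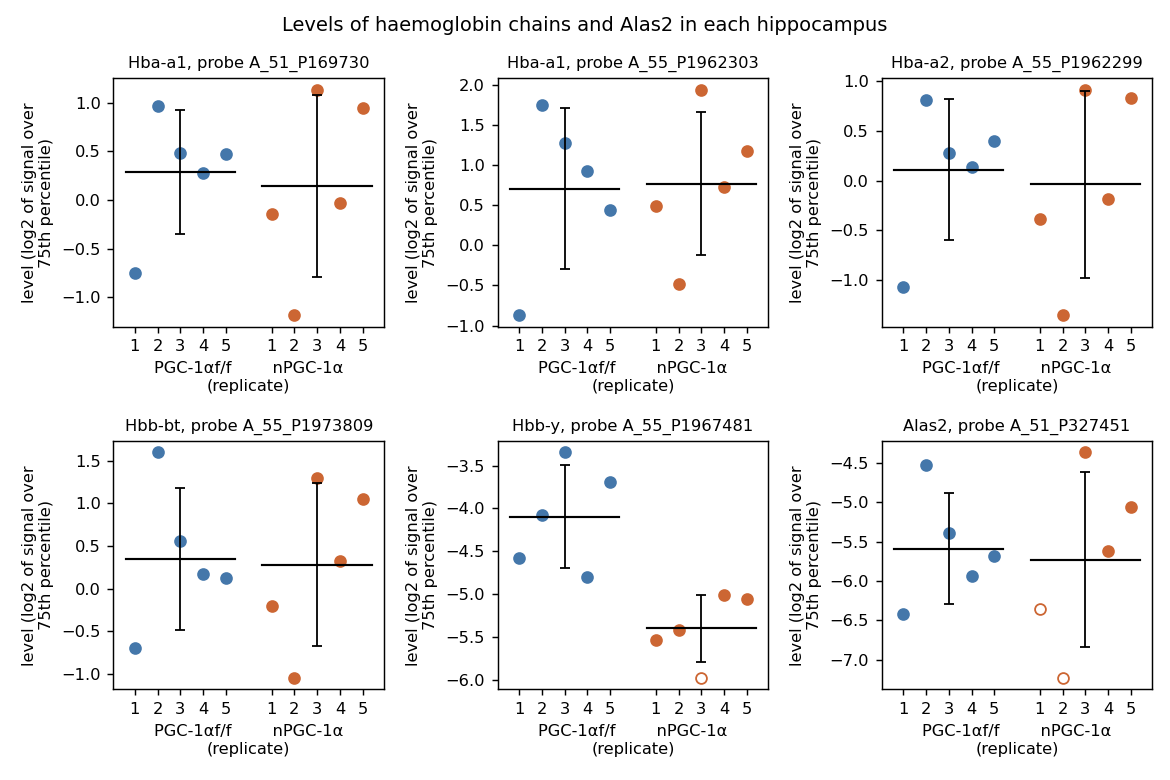
Level of each tested probe (log2 of signal over the array's 75th percentile) in 5 PGC-1αf/f mice (blue) and 5 nPGC-1α mice (orange), 1 point per array; open points were not well above background, the horizontal bar is the mean and the error bar the SD of 5. The groups overlap for both Hba-a1 probes, Hba-a2, Hbb-bt and Alas2, and not for Hbb-y, whose lowest PGC-1αf/f level was -4.80 and whose highest nPGC-1α level was -5.01.

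For the 4 globin probes among these the range from the lowest to the highest mouse was 2.28 to 2.81 on the log2 scale, or 4.84-fold to 7.002-fold. Alas2 is left out of this range because its lowest reading was not well above background. On all 5 probes the lowest arrays were those of nPGC-1α replicate 2 and PGC-1αf/f replicate 1. On all 5 likewise, nPGC-1α replicate 3 and PGC-1αf/f replicate 2 were among the 3 highest, and nPGC-1α replicate 5 was among the 3 highest on 4. Each group thus held mice from both ends. The 95% intervals of the 5 genotype differences reached down to between 0.418-fold and 0.474-fold and up to between 1.76-fold and 2.30-fold, so a change of 1.5-fold in either direction lay within each of them and was not detectable with 5 mice a group.

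**Figure D2:**
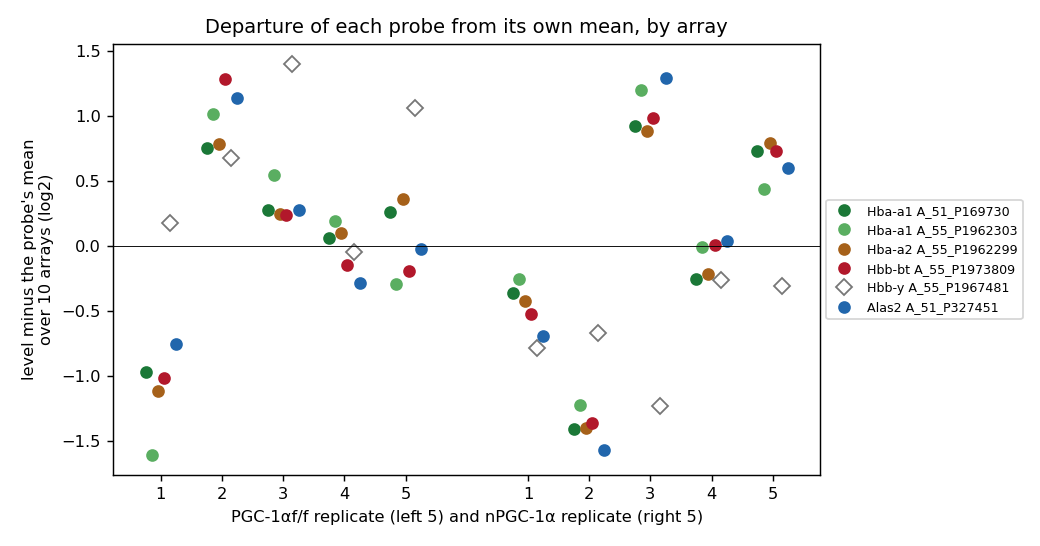
Level of each tested probe minus its own mean over the 10 arrays (log2), with PGC-1αf/f replicates 1 to 5 on the left and nPGC-1α replicates 1 to 5 on the right. The filled points of the alpha chains, Hbb-bt and Alas2 keep together on each array, and the open diamonds of Hbb-y do not.

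The spread between mice was larger than the spread between spots of one array. For the 10-spot probes A_51_P169730, A_55_P1962303 and A_55_P1962299 the SD over spots within an array had a median of 0.07, 0.10 and 0.06 over the arrays, after 93, 97 and 98 of 100 spots passed the outlier flags. The SD between mice of one genotype was 0.80, 0.95 and 0.83 for these probes, or 12.3, 9.81 and 14.2 times the spot SD. Spots of one array share the RNA, the labelling and the hybridisation, so the spot SD covers only the printing and reading of the spots.

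As a description, the pooled SD within genotypes of the 5 probes lay between 0.80 and 0.95, where the median of the 39142 tested probes was 0.23. This placed them at the 98.3 to 99.0 percentile of all tested probes. Among the 4082 probes with a mean level within 0.5 of its own, the dim Alas2 probe stood lower, at the 96.3 percentile. By the same measure the probes of Hba-a1, Hba-a2 and Hbb-bt stood at 99.6 to 99.9. Hbb-y had a pooled SD of 0.51, at the 91.7 percentile, and at the 84.5 percentile of the 4456 probes with a mean level within 0.5 of its own.

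**Figure D3:**
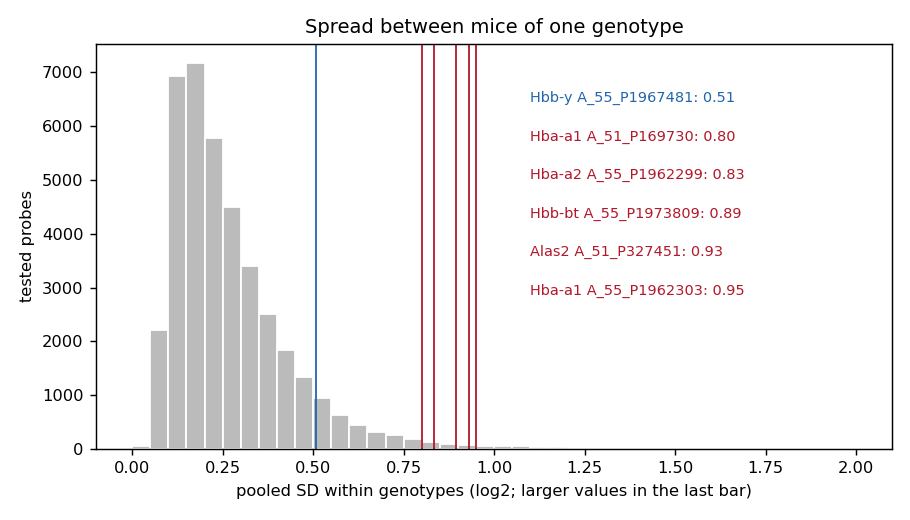
Number of tested probes by the pooled SD of their level within genotypes (log2, bars of 0.05), with a line for each tested haemoglobin or Alas2 probe. The 5 red lines, at 0.80 to 0.95, stand in the right tail, and Hbb-y (blue) at 0.51 lies nearer the bulk.

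The joint movement was measured against the Hbb-bt probe, in a family of 15 relations over the 10 arrays (permutation p-values from 100000 resamples, two-sided, adjusted by Benjamini-Hochberg). Alas2 followed Hbb-bt with Pearson r = 0.98 (permutation p = 3e-05, adjusted p = 3e-04) and Spearman rho = 0.98 (permutation p = 6e-05, adjusted p = 9e-04). A step of 1 in Hbb-bt went with a step of 1.02 in Alas2 on the log2 scale. Leaving out nPGC-1α replicate 2 and PGC-1αf/f replicate 2, the arrays farthest from the median of Hbb-bt, r was 0.96 (permutation p = 3.8e-04, adjusted p = 0.0051). On the 8 arrays where the Alas2 probe was well above background, a choice made after seeing the data, r was 0.97 (permutation p = 2e-04).

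The alpha chains followed Hbb-bt as well. For Hba-a1, r was 0.95 with probe A_51_P169730 (permutation p = 4e-05, adjusted p = 3e-04) and 0.94 with probe A_55_P1962303 (permutation p = 2.1e-04, adjusted p = 7.9e-04). For Hba-a2, r was 0.94 (permutation p = 6e-05, adjusted p = 3e-04). The Spearman rho of these 3 probes was 0.94, 0.94 and 0.88 (permutation adjusted p = 9.5e-04, 9.5e-04 and 0.0062). Without the same pair of arrays r was 0.95, 0.92 and 0.93. With the values centred on their group means r was 0.95, 0.94 and 0.95, and on the 8 arrays of slide 1 it was 0.97, 0.95 and 0.97.

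Hbb-y did not share this pattern. Its r with Hbb-bt was 0.11 (permutation p = 0.753, adjusted p = 0.868) and rho was 0.09 (permutation p = 0.811, adjusted p = 0.918), and without the pair of arrays farthest from the median r was -0.27. The relation therefore changed sign with the arrays used, and none could be shown.

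Set among all probes, the 4 probes of Alas2, Hba-a1 and Hba-a2 took ranks 1, 2, 3 and 4 in Pearson r with Hbb-bt among the 33999 other tested probes with a value on every array. Hbb-y took rank 8872. In all, 5 of the 33999 had r above 0.9. The fifth was the probe of Parp12, an ADP-ribosyltransferase, with r = 0.94, and its level ranged over 1.07 on the log2 scale, from -3.56 to -2.49. Over the brightest probe of each of 15853 other genes, the next after Parp12 were 1700013F07Rik (r = 0.88), Slc16a7 (0.86), Plxnb3 (0.85), Dusp15 (0.85), Mia (0.85), Tnnc2 (0.83) and Tgfbr1 (0.83). These 7 genes ranged over 0.46 to 1.08 on the log2 scale, against 2.64 for Hbb-bt. With 10 arrays and so many genes, these values only describe likeness.

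**Figure D4:**
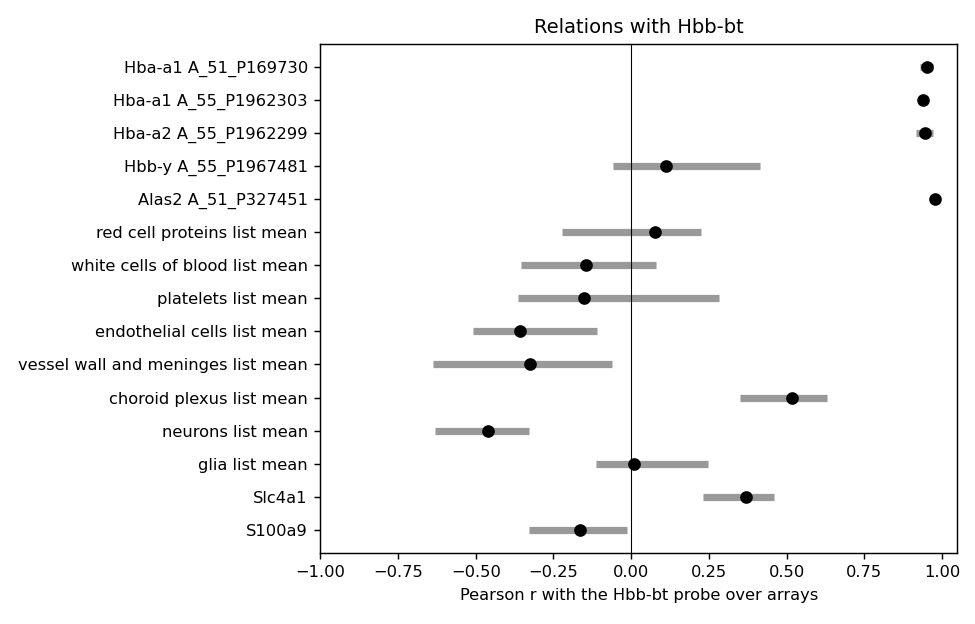
Pearson r of the Hbb-bt probe with the other tested members, with the mean standardised level of 8 marker lists and with Slc4a1 and S100a9, over 10 arrays (points); grey bars give the lowest and highest r when each array is left out in turn. Hba-a1, Hba-a2 and Alas2 lie between 0.94 and 0.98, and the other relations spread from -0.46 to 0.52.

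Hbb-y (chr7:103851754-103853207), the embryonic beta-type chain of yolk sac red cells, was dim and lay lower in nPGC-1α mice. Its single-spot probe A_55_P1967481 read -4.57, -4.07, -3.35, -4.80 and -3.69 in PGC-1αf/f mice, a mean of -4.10 ± 0.60 (SD, n = 5). It read -5.53, -5.42, -5.98, -5.01 and -5.06 in nPGC-1α mice, a mean of -5.40 ± 0.39 (SD, n = 5). All 5 nPGC-1α mice were below all 5 PGC-1αf/f mice.

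The difference of Hbb-y was -1.30 ± 0.28 (SE) on the log2 scale. The probe entered the test through PGC-1αf/f, where it was well above background on 5 of 5 arrays, against 4 of 5 in nPGC-1α, so the size of the difference rests in part on a reading at background. With values raised to the highest floor it was -1.26 (limma adjusted p = 0.251). The difference did not pass after adjustment over all 39142 probes (limma adjusted p = 0.130, rank 229 by p). Alone among the members it had an unadjusted p under 0.05 with a 1.5-fold change, where 2.98% of all tested probes did so in the lower direction. Groups that did not overlap, with nPGC-1α lower, were found for 2.03% of the 34000 probes with every value. None of the 6 tested member probes passed the adjusted threshold, as against 0.00255% of all tested probes, a single probe. The exact permutation test and the exact Mann-Whitney test, the one named in the methods, both gave 0.00794, the value that any 5 against 5 arrays without overlap must give, and so they add nothing to the absence of overlap.

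Several measures moved with the groups beside Hbb-y. The dimmest signal called well above background lay at -7.51 to -6.56 in PGC-1αf/f and at -6.62 to -5.75 in nPGC-1α arrays on the level scale, and Hbb-y was not well above background in nPGC-1α replicate 3. Among the 4456 tested probes within 0.5 of its mean level, 4.38% were lower in nPGC-1α at the same unadjusted threshold and fold, and 2.46% of the 4428 with every value had groups that did not overlap. Only 9 of the 4456 were lower by more than Hbb-y. Because Hbb-y was tested through PGC-1αf/f, the group where it was higher, neither this rank nor its absence of overlap is independent of the filter. They are given as a description. With background modelled by normexp, an offset of 50 and quantile normalization the difference was -0.77 (limma adjusted p = 0.551). With quantile normalization alone it was -1.22 (limma adjusted p = 0.380). The normexp fit also started from the median signals of the spots and their background, not from the processed signal. The size of the difference thus depended by more than 1.5 times on the input signal, the background model and the offset together, which were not separated. The part of array background in the difference was not tested. On slide 1 alone it was -1.29 (adjusted p = 0.235), on slide 2 the levels were -3.69 in the PGC-1αf/f and -5.06 in the nPGC-1α mouse, and with slide as a block it was -1.30 (adjusted p = 0.119). With the presence of Y-linked transcripts as a block it was -1.13 (adjusted p = 0.308).

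**Figure D5:**
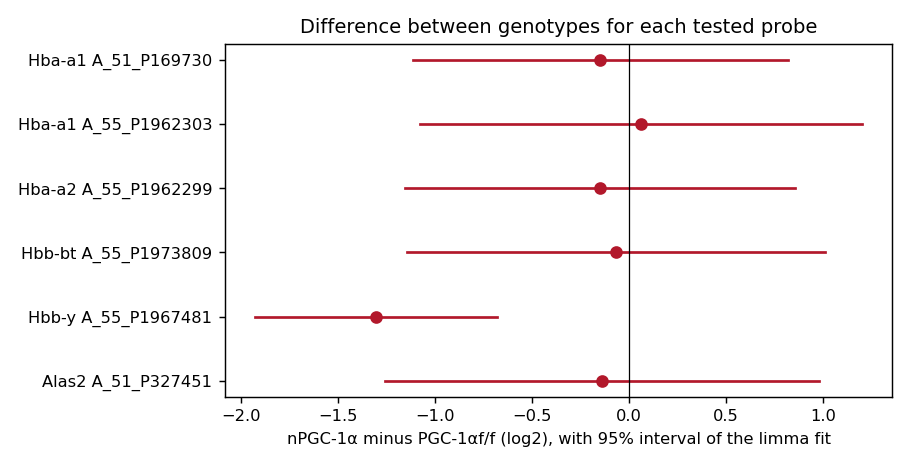
Difference in level, nPGC-1α minus PGC-1αf/f (log2), with its 95% interval from the limma fit, for each tested probe. The intervals of Hba-a1, Hba-a2, Hbb-bt and Alas2 span 0, and that of Hbb-y runs from -1.93 to -0.68 before any correction for the number of probes and includes a reading not well above background.

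The other embryonic member, Hba-x (chr11:32276600-32278116), the alpha-type chain of the earliest red cells, was not well above background on any array. Among globins outside the members, the probe of Hbb-b1, which carries an accession of the diffuse beta haplotype, was lowest in the same mice as Hbb-bt, at -5.42 in PGC-1αf/f replicate 1 and -5.00 in nPGC-1α replicate 2, and highest at -1.89 in PGC-1αf/f replicate 2. It gave 9 values, since its spot in nPGC-1α replicate 3 was marked as an outlier, and its difference was -0.55 ± 0.65 (SE; limma adjusted p = 0.760). The spot of the Hbb-b2 probe carried an outlier mark on 5 arrays, too many for a test, and with the marked spots kept it was lowest in PGC-1αf/f replicate 1 at -1.21 and highest in nPGC-1α replicate 3 at 1.60. Both genes share sequence with Hbb-bs and Hbb-bt, and which transcript these probes bound in C57BL/6 mice cannot be read from the files.

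None of the globins outside the members passed the adjusted test, in which 0 of 7 tested genes passed and 0 had an unadjusted p under 0.05. Hbb-bh2, a beta-type gene, measured -0.66 ± 0.34 (SE), with only 6 of 10 arrays well above background. The theta-type genes Hbq1a and Hbq1b measured 0.03 ± 0.29 and 0.27 ± 0.23. Neuroglobin (Ngb), the globin of neurons, measured 0.05 ± 0.27, cytoglobin (Cygb) 0.06 ± 0.13, and myoglobin (Mb), the oxygen store of muscle, -0.29 ± 0.24. Over the list the median difference was 0.03, where the median over all tested probes was -0.04.

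Haem is made in every cell by the same enzymes after the first step. None of these enzymes passed a test here by its brightest tested probe. All 8 genes of the list were tested and 0 passed in either direction at the adjusted or the unadjusted threshold, with a median difference of -0.04. Alas1, the form of the first enzyme in other tissues, ranged from 1.17 to 1.69 over the 10 mice and differed by 0.05 ± 0.11 (SE). These values are of its brightest probe, and its other tested probes differed by 0.26 and 0.55. On the brightest probe the lowest mouse was PGC-1αf/f replicate 2, one of the highest for Alas2. Alad measured 0.14 ± 0.17, Uros -0.09 ± 0.09, Urod -0.03 ± 0.09, Cpox 0.05 ± 0.11 and Ppox -0.10 ± 0.11. Other tested probes differed by -0.14 and 0.08 for Uros and by 0.12 for Ppox. Fech, which inserts the iron, measured -0.06 ± 0.09 and ranged over the 10 mice from 1.62 to 1.93 only.

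Of the genes for red cell proteins other than globins, some were not well above background and others were measured on all arrays. The list held 20 genes, of which 19 had a probe, 11 were tested and 4 were not well above background on any array. The red cell transcripts Rhag and Trim58 were not well above background on any array, and neither was Gata1, the factor that drives globin transcription in red cell precursors. Slc4a1, the band 3 anion exchanger of the red cell membrane, was dim but measured on all arrays. It lay at -6.41 to -5.46 in PGC-1αf/f and at -5.42 to -4.04 in nPGC-1α mice, a difference of 1.00 ± 0.26 (SE; limma adjusted p = 0.190), in the opposite direction to Hbb-y. The groups did not overlap, with nPGC-1α higher, which held for 0.709% of all probes with every value. Across arrays it had r = 0.37 with Hbb-bt (permutation p = 0.295, adjusted p = 0.586), and with values centred on their group means r was 0.62 (permutation p = 0.0545, adjusted p = 0.164).

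The other tested red cell genes did not pass either threshold. Their median with Slc4a1 was 0.06, and those with the lowest unadjusted p after Slc4a1 were Car1 (-0.21 ± 0.11 SE) and Gypc (0.22 ± 0.13 SE). Hemgn, an erythroid nuclear protein, had a probe at 4.79 to 5.73, while its other probe was not well above background on any array, so its probes disagree, and the bright one stands in the counts, the median and the mean of the list. Bpgm, Sptb, Ank1 and Slc25a37 are also used outside red cells. The list mean had r = 0.08 with Hbb-bt (permutation p = 0.838, adjusted p = 0.898).

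Of the erythroid transcription factors, 0 of 9 tested genes passed either threshold. Klf1, the factor of the adult beta promoter, stood at -4.77 to -4.06, and Nfe2, a factor of red cells and megakaryocytes, at -7.03 to -3.92 with a difference of 1.01 ± 0.49 (SE; limma adjusted p = 0.450). Bcl11a, Sox6 and Zbtb7a, which silence embryonic chains in red cells and are also expressed in neurons, differed by 0.09 ± 0.10, -0.15 ± 0.12 and 0.10 ± 0.10. Other tested probes differed by 0.19 and 0.21 for Bcl11a, -0.13 and 0.15 for Sox6 and 0.58 for Zbtb7a. Klf1 differed by 0.21 on its brightest probe and by -0.27 on the other. The median of the list was 0.09.

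Genes that take up and break down haemoglobin and haem were also measured, and 0 of 13 passed at either threshold, with a median difference of -0.01. Haptoglobin (Hp), which binds free haemoglobin and is also a neutrophil granule product, measured 0.78 ± 0.59 (SE), and hemopexin (Hpx), which binds free haem, -0.50 ± 0.24. The haptoglobin-haemoglobin receptor Cd163 of border macrophages measured 0.03 ± 0.22 and the hemopexin receptor Lrp1 0.01 ± 0.11. Haem oxygenase Hmox1, induced by haem, measured 0.33 ± 0.21 and the constitutive Hmox2 -0.01 ± 0.08. The bilirubin-forming reductases Blvra and Blvrb measured 0.04 ± 0.14 and -0.04 ± 0.12. The ferritin chains Fth1 and Ftl1 measured -0.18 ± 0.16 and -0.05 ± 0.10, the iron exporter Slc40a1 -0.34 ± 0.25, the transferrin receptor Tfrc 0.27 ± 0.16 and the iron transporter Slc11a2 -0.12 ± 0.15. Other tested probes of Slc11a2 differed by -0.05 to 0.72, so its probes disagree. Those of Hmox2, Blvra and Tfrc differed by 0.11, 0.22 and 0.24.

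Blood holds other cells, and markers of these were set beside the haemoglobin chains. The neutrophil gene S100a9 read 2.93, 1.78, 0.60, -0.68 and 2.05 in PGC-1αf/f mice. In nPGC-1α mice it read 2.95, 2.26, 2.74, 1.15 and 1.83. PGC-1αf/f replicate 1 was thus high for S100a9 and low for haemoglobin, and r with Hbb-bt was -0.16 (permutation p = 0.656, adjusted p = 0.868). The white cell list, with 11 of 14 genes tested, had r = -0.15 (permutation p = 0.681, adjusted p = 0.868), and Ngp (1.87 ± 0.68 SE, limma adjusted p = 0.316) was among its genes with an unadjusted p under 0.05. The mean level of its tested genes about their own means ran from -1.36 to 0.97 in PGC-1αf/f and from -0.63 to 0.90 in nPGC-1α mice. Platelet genes, 5 of 9 tested, had r = -0.15 with Hbb-bt (permutation p = 0.703, adjusted p = 0.868), and the platelet chemokine Pf4, which border macrophages also make, ranged from -1.89 to -0.37.

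Vessel markers did not follow Hbb-bt by the adjusted test. The mean of the endothelial list, 14 of 14 genes tested, each about its own mean, ran from -0.23 to 0.12 in PGC-1αf/f and from -0.04 to 0.10 in nPGC-1α mice. For r, here and in the other lists, each gene was also divided by its SD over the arrays. This standardised mean had r = -0.36 with Hbb-bt (permutation p = 0.312, adjusted p = 0.586). Single genes of the list varied more than its mean before that division. Cldn5, the tight junction claudin of brain capillaries, ranged from 0.86 to 1.63, the adhesion molecule Pecam1 from -4.35 to -2.73 and the angiopoietin receptor Tek from -4.40 to -2.70. Smooth muscle and meningeal genes, 10 of 10 tested, ran as a mean from -0.56 to 0.20 in PGC-1αf/f and from -0.23 to 0.25 in nPGC-1α mice and had r = -0.33 (permutation p = 0.364, adjusted p = 0.606). Choroid plexus genes, 10 of 12 tested, varied most, from -1.07 to 1.47 in PGC-1αf/f and from -0.68 to 1.96 in nPGC-1α mice, and had r = 0.52 with Hbb-bt (permutation p = 0.126, adjusted p = 0.377). Neuronal and glial lists had r = -0.46 and 0.01 (permutation p = 0.179 and 0.977, adjusted p = 0.447 and 0.977). Of these marker lists none followed Hbb-bt by the adjusted test, but with 10 arrays a relation of moderate size would not be detected.

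Over all 13 lists 131 genes were tested, of which 0 passed the adjusted threshold and 7, or 5.34%, had an unadjusted p under 0.05, where 11.9% of all tested probes did. Beside Slc4a1 and Ngp these included the endothelial receptor Kdr (0.42 ± 0.16 SE), the pericyte channel Kcnj8 (0.22 ± 0.10 SE), the microglial gene Tmem119 (-0.21 ± 0.09 SE) and Egln3, a hypoxia-induced prolyl hydroxylase (0.35 ± 0.12 SE). Of the hypoxia list, 11 of 11 genes were tested and the median difference was -0.01.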

How the data were processed

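Hippocampal RNA of 10 mice was hybridised to 1-colour Agilent mouse arrays, 1 array per sample. The authors extracted RNA with TRIzol, kept extracts of good integrity, amplified it linearly, labelled it with Cy3 and read the arrays with Feature Extraction, version 11.5.1.1 as the headers state. The scanner files, as deposited, hold the processed signal as linear intensity after the authors' background subtraction. The deposited value table holds log2 intensity normalized by the authors, with 41606 probes and column medians of 9.92 to 9.93. Its lowest correlation with the scanner values of an array was r = 0.99868, and it was used as an alternative. The scanner headers name another genome build than RefSeq's table, so coordinates and names were taken from RefSeq (GRCm38.p6), where 33767 of 56605 probes matched 1 gene.

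Spots of a probe without an outlier flag were averaged as log2 intensity and the log2 of the 75th percentile over 59305 gene spots was subtracted. No gene spot was saturated. A probe was tested where it was well above background on all 5 arrays of a group and had at least 3 values in each group, which left 39142. Groups came from the sample titles. limma 3.58.1 (R 4.3.3; lmFit and eBayes) was fitted over all probes with Benjamini-Hochberg adjustment at 0.05. The limma step was also tried on arrays simulated from the means and SDs of these probes, with the outcome not reported here. Exact tests and correlations used scipy 1.17.1 (Python 3.11.15). Nothing says that the samples came from separate litters, and p-values measure the spread between these samples. The number of arrays, not a read depth, limits the precision.

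The members and lists were chosen with earlier results of these data known. Named genes were all members, every tested gene of the lists of haem synthesis, other globins and haemoglobin clearance, set defining markers, up to 3 genes per other list by lowest p, and the 8 genes most like Hbb-bt. For a gene with several probes, the brightest tested probe was used, so the counts and medians of the lists rest on a single probe per gene. Alternatives covered normalization (quantile, median, normexp with an offset of 50 and the authors' values), filter, floor, outlier spots, slide, replicate and Y-linked class as blocks, array weights, the eBayes prior, and arrays left out. Some genes of the lists enter the counts and medians but are not reported here by name.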

Additional observations from a re-analysis of the deposited data

Results flagged for a closer look

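Values in which the array farthest from the other 4 of its group stood apart were looked for in 57 sets of 5 arrays (each probe described above, the array measures and the list means), of which chance alone would give about 2.9, and 5 were found. None was a haemoglobin or Alas2 probe. PGC-1αf/f replicate 1, one of the lowest for the adult chains, stood apart by its noise estimate of 8.98 intensity units against 5.16 to 6.14 in the other PGC-1αf/f arrays, by the 10.5% of gene spots marked as outliers against 0.192% to 3.05%, and by its lowest signal well above background at -6.56 against -7.51 to -7.41 on the level scale. nPGC-1α replicate 3, one of the highest for the adult chains, stood apart by a noise estimate of 20.9 against at most 13.5 and by the mean standardised level of choroid plexus genes of 1.95 against -0.58 to -0.33. The part of these measures in the haemoglobin levels was not tested.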

How the results depend on the processing

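The genotype differences of Hba-a1, Hba-a2, Hbb-bt and Alas2 did not pass the adjusted threshold under any alternative that gave a value, 25 for the globins and 24 for Alas2. Their signs were not stable. Leaving out 1 array at a time, the difference ran from -0.41 to 0.19 for Hba-a1 probe A_51_P169730, from -0.33 to 0.38 for Hba-a1 probe A_55_P1962303, from -0.44 to 0.18 for Hba-a2, from -0.33 to 0.27 for Hbb-bt and from -0.48 to 0.24 for Alas2. The lowest value came without PGC-1αf/f replicate 1 for the globins and without nPGC-1α replicate 3 for Alas2, and the highest without nPGC-1α replicate 2 for each. The sign also turned for Hba-a1 probe A_55_P1962303 on slide 1 (-0.11) and with array weights (-0.42), for Hbb-bt with median scaling (0.0040), and for Alas2 with values raised to the highest floor (0.11).

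The difference of Hbb-y kept its sign throughout, between -1.48 and -0.77. It passed only without the filter on dim probes, with the same -1.30 and an adjusted p of 0.0289, so the number of members past the adjusted threshold was then 1, but 4619 of all probes passed there, against 1 with the filter. Its adjusted p lay between 0.0289 and 0.621. Leaving out 1 array at a time gave 0.0840 to 0.320. Required well above background on all 10 arrays, Hbb-y and Alas2 were not tested, and 0 members passed the unadjusted threshold with 1.5-fold. The count of all probes at an unadjusted p under 0.05 moved from 11.9% to between 5.53% and 19.5%.

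The relations of Hba-a1, Hba-a2 and Alas2 with Hbb-bt passed under all 15 settings tried for each of them, at r of 0.917 to 0.983. That of Hbb-y ran from -0.059 without nPGC-1α replicate 2 to 0.41 without nPGC-1α replicate 3, and was -0.27 without the 2 arrays farthest from the median. Other relations that turned sign, none past the threshold, were those of the glia list (-0.0044 centred on group means, -0.080 on slide 1, -0.21 without the 2 farthest arrays, -0.11 to 0.25 leaving out 1 array), the platelet list (0.34 without the 2 farthest, -0.37 to 0.28), the red cell list (-0.22 on slide 1, -0.046 with quantile normalization, -0.22 to 0.22), the white cell list (0.013 with quantile normalization, -0.35 to 0.079), the vessel wall list (0.0080 without the 2 farthest) and S100a9 (0.035 with quantile normalization). Of the genes in the lists, 7 had an unadjusted p under 0.05, but 13 with slide as a block, 17 with the replicate block, 17 with array weights and 6 to 13 leaving out 1 array. Causes were not tested.

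Arrays of the 2 groups share replicate numbers, but these pair the samples in no label, and the deviations of same-numbered arrays correlated at 0.22, 0.08, 0.11, 0.18 and 0.36 for numbers 1 to 5. With the replicate block the difference of Hbb-y was -1.30 (limma adjusted p = 0.149) and no member passed. Signal over background limits Alas2, Hbb-y and Hba-x.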
